A study of Mus musculus with 5 samples.

Results

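The 10 genes described here encode nuclear receptors: the NR4A family (Nr4a1, Nr4a2 and Nr4a3), the lipid sensors Nr1h3, Pparg and Ppard, the retinoid receptors Rxra and Rara, the glucocorticoid receptor Nr3c1 and the vitamin D receptor Vdr. They and the gene lists below were chosen by name, with earlier results of these data known. Every probe set annotated to exactly 1 of the 10 symbols was read, 26 of the 45037 probe sets that are not controls. All 10 were measured, out of 18193 genes in all. Gene expression was compared on Affymetrix arrays between 2 arrays of brain dendritic cells (DC) and 3 arrays of bone marrow monocytes. All samples came from C57BL/6 mice labelled female and 6 to 8 weeks old. The brain DC were sorted as lineage-negative, CD45-high and CD11c-positive cells, from mice that had carried B16-Flt3L tumour cells under the skin for 12 days. B16 is a mouse melanoma line, and Flt3L is Flt3 ligand, a growth factor that expands dendritic cells. The monocytes were gated as cells with CD115 on their surface, much CD11b and little side scatter; no treatment is named in their labels. Tumour, organ, cell type and sort gate therefore differ together between the groups and cannot be told apart. Nothing in the labels says that the arrays hold separate animals, so the p-values reflect only how far these samples spread, and that spread may be technical.

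Nuclear receptors are transcription factors with a zinc finger domain that binds DNA and a second domain that, in most members, holds a small fat-soluble ligand. The NR4A receptors differ from the rest: their ligand pocket is filled by side chains, and their activity follows how much of them is made; they are induced within minutes as immediate early genes. In myeloid cells Nr4a1 is known for the survival of patrolling, Ly6C-low monocytes. The lipid sensors, Rara and Vdr bind DNA as partners of a retinoid X receptor such as Rxra, whereas Nr3c1 is held by chaperones in the cytoplasm until a glucocorticoid binds.

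NR4A transcription is known to be driven by CREB, a factor that binds the cAMP response element. The upstream sequences of the 3 NR4A genes are printed because these genes were the members that differed most between the groups. Each run is the 250 bases before the transcription start in RefSeq's table of assembly GRCm38.p6, read 5′ to 3′ on the gene's own strand, and capitals mark the core of the cAMP response element, TGACG, or its reverse complement, CGTCA.
Nr4a1 (chr15:101266596-101266845, plus strand): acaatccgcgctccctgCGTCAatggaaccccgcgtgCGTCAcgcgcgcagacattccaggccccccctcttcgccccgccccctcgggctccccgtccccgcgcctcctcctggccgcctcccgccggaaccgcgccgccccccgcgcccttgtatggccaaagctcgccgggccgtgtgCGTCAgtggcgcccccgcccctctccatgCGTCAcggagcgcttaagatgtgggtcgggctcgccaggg
Nr4a2 (chr2:57124004-57124253, minus strand): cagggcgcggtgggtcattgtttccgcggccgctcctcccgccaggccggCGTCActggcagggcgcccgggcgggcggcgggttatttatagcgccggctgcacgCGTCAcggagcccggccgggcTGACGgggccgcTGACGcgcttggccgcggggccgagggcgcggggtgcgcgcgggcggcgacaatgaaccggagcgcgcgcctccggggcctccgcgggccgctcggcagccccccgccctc
Nr4a3 (chr4:48045055-48045304, plus strand): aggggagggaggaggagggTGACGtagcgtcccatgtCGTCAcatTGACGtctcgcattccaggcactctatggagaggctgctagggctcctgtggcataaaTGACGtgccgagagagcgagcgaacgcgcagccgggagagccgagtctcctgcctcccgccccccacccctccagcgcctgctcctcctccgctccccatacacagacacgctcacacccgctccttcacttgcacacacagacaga
Each of the 3 windows held 4 copies of the core. In Nr4a1 all 4 read in reverse, beginning 233, 213, 69 and 40 bases before the start. Nr4a2 had 2 forward and 2 reverse copies and Nr4a3 had 3 forward and 1 reverse. Of 32851 windows in the table, each 300 bases long (250 before the start and 50 after), 20.8% held at least 1 copy on either strand and 0.231% held 4 or more. Among the receptors, 6 of 16 windows held at least 1 copy, in 5 genes: the 3 NR4A genes, Ppard and Rara. The 3 NR4A windows were rich in G and C, at 74.4%, 80% and 63.6% for Nr4a1, Nr4a2 and Nr4a3. The median over all windows was 52.4%. How base composition bears on the number of copies was not tested. The full palindromic element, TGACGTCA, was in 1.79% of windows and in none of the 16 windows that the table gives for 9 of the 10 receptors. The monomer site that NR4A proteins are known to bind, AAAGGTCA, was in 1.51% of windows and, among the receptors, in 1 window of Rxra; the shorter AGGTCA that it contains was in 16.3% of windows and in those of 3 receptors. Of the other motifs searched on both strands, TATAAA (13.6% of windows) and TGACGNNA (6.61%, a form that contains the core) occurred in Nr4a2 and Nr4a3, respectively. CCAAT (37.4%), the serum response element in the form searched (0.0639%) and TGACGCAA (0.49%, which also contains the core) were in no NR4A window. A match describes the letters in a window and shows no binding.

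**Figure D1:**
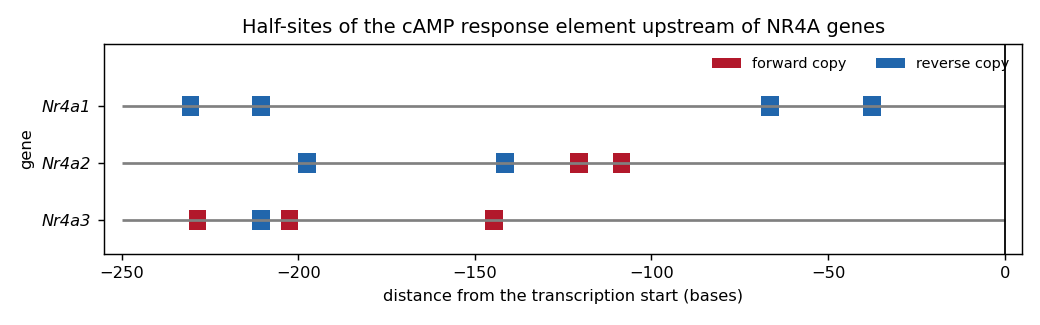
Positions of the core of the cAMP response element in the 250 bases upstream of each NR4A gene; the x axis is the distance from the transcription start in bases, each row is a gene and each block is a copy, coloured by its direction. Every gene has 4 copies, which lie between 233 and 36 bases before the start.

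Each value is on a log2 scale centred separately for every probe set. It shows differences between arrays and no absolute level, and levels cannot be compared between genes. A gene's value in an array is the mean of its probe sets. Marker counts are calls of the limma test described below, which over all genes called 16.9% higher and 16.9% lower. All 9 conventional dendritic cell markers were higher in brain DC, led by Xcr1 (5.64) and H2-Ab1 (5.45), and 5 of 6 measured monocyte markers were lower, led by Fn1 (-5.94) and F13a1 (-5.36). Brain DC also had 7 of 8 microglia markers higher, led by Gpr34 (3.64) and Fcrls (3.45), 3 of 7 markers of choroid plexus, glia and endothelium, led by Ttr (7.22) and Cldn5 (2.56), and 2 of 6 natural killer cell markers, Klrd1 (6.29) and Gzma (2.75). Of 7 border macrophage markers 3 were higher and 1 lower, led by Pf4 (2.90) and Cd163 (1.19). Their lowest difference was -1.18 and their median 0.20. Of 9 neutrophil and granulocyte progenitor markers 5 were lower and 0 higher, led by Mmp8 (-4.76) and Mpo (-4.64). Their highest difference was 1.33, and with the replicate number as a block 2 were called higher. B cell markers had 1 of 5 called (Ms4a1, 1.00; the next was Cd79b, -0.78), T cell markers 1 of 5 (Cd3d, 0.45; Cd3g, not called, 0.48) and erythroid markers 2 of 4 (Alas2, 0.79 and Epor, 0.48). The share called was 33.3% for natural killer cell markers and 20% for B cell and for T cell markers, near or below the 33.8% over all genes. The T cell call was lost without any 1 array other than brain DC replicate 1, the erythroid calls became 0 or 1 without any 1 array, and B cell markers had 2 higher without monocyte replicate 1 and 1 lower without brain DC replicate 2. The mean of the microglia markers was 1.58 and 1.41 in the brain DC arrays and between -0.68 and -0.46 in the monocyte arrays. Xist was higher in brain DC (5.62) and 3 Y-linked genes, Kdm5d (-1.09), Uty (-0.91) and Eif2s3y (-0.62), were lower, although all samples are labelled female. All 24 probe sets of the poly-A spike-ins, RNA added before labelling, were higher in brain DC, by a median of 2.59. The ends of control transcripts differed as well. The probe set at the 3′ end of Actb minus that at its 5′ end was -0.16 and -0.31 in the brain DC arrays and 3.99, 3.98 and 1.60 in the monocyte arrays. The same value for Gapdh was -0.34 and -0.22 against 2.78, 2.86 and 2.28, while for Pcx and Tfrc the groups differed by -0.21 and -0.10. The sex-linked, spike-in and transcript-end differences coincide with the groups and cannot be told apart from them. The part of all these values in the results below was not tested. In a sorted bulk sample more cells of a type cannot be told apart from more RNA per cell.

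All 3 NR4A genes were higher in brain DC and the other 7 receptors were not called (limma, Benjamini-Hochberg adjusted p threshold of 0.05 over all 18193 genes). The limma fit called 0 of the 10 lower; at an unadjusted p under 0.05, 1 was lower (Rxra) and 4 were higher, the fourth being Pparg. Over all genes 33.8% were called, 16.9% higher and 16.9% lower, so 3 of 10 is near the background for the set as a whole. The groups did not overlap for 7 of the 10 receptors, against 60.2% of all genes. The median difference of the 10 was 0.18, and that of all genes was 0.09.

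**Figure D2:**
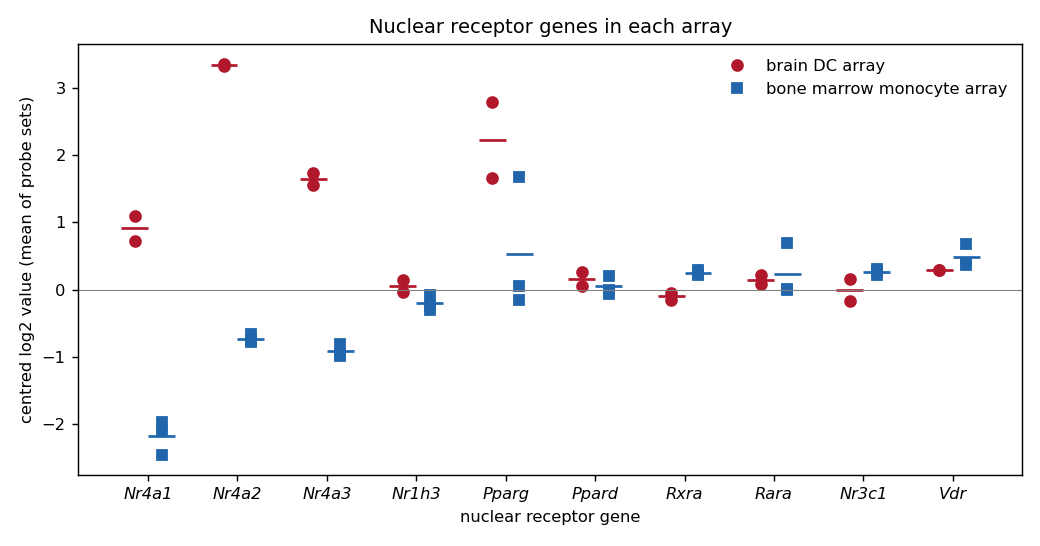
Centred log2 value of each of the 10 receptors (mean of its probe sets) in each array; circles are brain DC arrays, squares are monocyte arrays and short lines are group means. The groups are far apart for Nr4a1, Nr4a2 and Nr4a3, while for Pparg 1 monocyte array reaches 1.68, within the brain DC range.

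Nr4a1 (also called Nur77), read by 1 probe set, stood at 0.73 and 1.10 in the brain DC arrays and at -1.97, -2.46 and -2.10 in the monocyte arrays. The lowest brain DC array was thus far above the highest monocyte array. The difference was 3.09 ± 0.19 (SE of the limma fit, n = 2 and 3), which is 8.51-fold (limma adjusted p = 3.68e-05), and 1.07% of genes had a larger absolute difference.

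Nr4a2 (Nurr1, known for its role in dopamine neurons and as a repressor of inflammatory genes in microglia) stood at 3.32 and 3.36 in the brain DC arrays and at -0.65, -0.77 and -0.75 in the monocyte arrays. The difference over its 6 probe sets was 4.07 ± 0.12, or 16.7-fold (limma adjusted p = 1.75e-06). Its probe sets gave different sizes: 4 of the 6 lay between 4.81 and 6.25, 28.1-fold to 75.9-fold. The largest, 1455034_at, stood at 4.70 and 4.64 against -1.68, -1.28 and -1.77. The remaining pair, 1433423_at and 1433422_at, gave 1.27 ± 0.19 and 0.28 ± 0.20, and the second was not called (limma adjusted p = 0.337 over probe sets). In 1433422_at the groups overlapped, with 0.09 and -0.22 against -0.11, -0.58 and -0.34. These 2 share a target sequence in the platform annotation. Other targets are given for 1455034_at, 1450750_a_at and 1450749_a_at, and none is given for 1447863_s_at.

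Nr4a3 (NOR1, which acts in dendritic cell migration) stood at 1.56 and 1.74 in the brain DC arrays and at -0.80, -0.98 and -0.96 in the monocyte arrays. The mean over its 3 probe sets differed by 2.56 ± 0.13, or 5.91-fold (limma adjusted p = 1.71e-05). That mean rests on 1 probe set. In 1438796_at the brain DC arrays stood at 4.59 and 4.77 and the monocyte arrays at -2.01, -1.91 and -2.13, a difference of 6.69 ± 0.16, or 103.5-fold, the largest of all 26 probe sets. The other two probe sets, 1421079_at (0.67 ± 0.23, limma adjusted p = 0.0710) and 1421080_at (0.33 ± 0.16, limma adjusted p = 0.188), were not called, and both share a target sequence. Without brain DC replicate 1 the first of these was called (0.96, limma adjusted p = 0.0337). The NR4A call itself was kept for all 3 genes under each alternative that gave a value, but the order of the family was not. With probe sets averaged, the change in Nr4a2 exceeded that in Nr4a1 by 0.98 and that in Nr4a3 fell short of Nr4a1 by 0.53 (-0.53) and of Nr4a2 by 1.50 (-1.50). Each of these 3 comparisons had an exact two-sided permutation p of 0.1 (adjusted p = 0.1), the smallest that 2 against 3 arrays allow. With the probe set of largest range for each gene, Nr4a3 exceeded Nr4a1 by 3.60 and Nr4a2 by 0.45.

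Over all 26 probe sets of the 10 receptors 7 were called higher and 3 lower, against 12.2% and 15.5% of all probe sets (27.7% in either direction). The 7 higher ones all belonged to NR4A, out of its 10, and the 3 lower ones to Rxra and Nr3c1. The groups did not overlap in 15 of the 26, against 55.4% of all probe sets. Probe sets of a gene share its RNA and are not replicates.

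**Figure D3:**
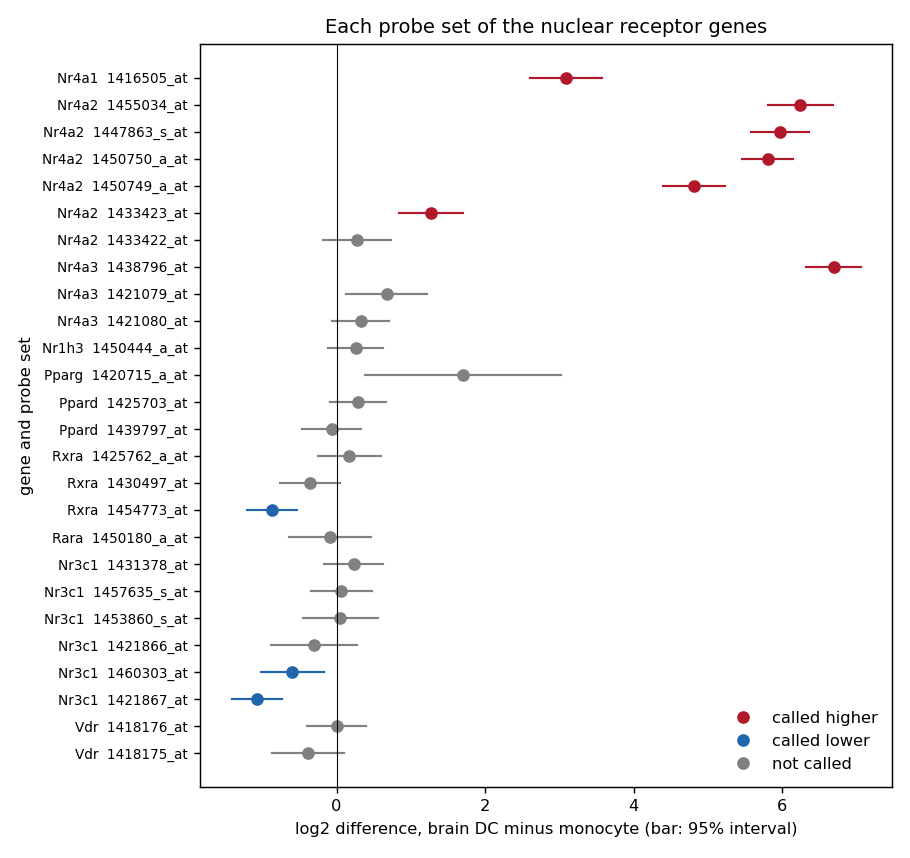
Log2 difference, brain DC minus monocyte, of each of the 26 probe sets with its 95% interval (bars, limma); red marks called higher, blue called lower and grey not called. Nr4a2 and Nr4a3 span from near 0 to over 6, and Nr3c1 and Rxra mix called and uncalled probe sets.

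Nr1h3 encodes LXR alpha, the oxysterol receptor of macrophages that promotes cholesterol export. It stood at 0.14 and -0.03 in brain DC and at -0.07, -0.23 and -0.31 in monocytes. The groups did not overlap, but the difference of 0.26 ± 0.14 was not called (limma adjusted p = 0.184, 95% interval -0.06 to 0.57). Genes that LXR is known to induce went both ways: 4 of the 14 measured were higher and 6 lower, with 16.9% of all genes called in each direction, and their median was -0.37. Lpl, lipoprotein lipase, was 7.68-fold lower (-2.94 ± 0.33), and Smpdl3a was lower by 1.34 (-1.34 ± 0.17). Pltp, the phospholipid transfer protein (1.92 ± 0.28), and Mertk, an uptake receptor for dying cells (1.43 ± 0.28), were higher. So were the fatty acid synthesis genes Fasn (0.95 ± 0.18) and Scd1 (0.83 ± 0.12), whereas Srebf1 (-0.99 ± 0.17) and Scd2 (-0.60 ± 0.15) were among the 6 lower. The cholesterol exporters Abca1 (-0.12) and Abcg1 (-0.21), along with Apoe (-0.02) and Cd5l (-0.52), made up the 4 that were not called. Among 6 enzymes that make or modify sterols 3 were higher and 0 lower (median 0.44), again beside 16.9% of all genes in each direction: Ch25h, which makes the LXR ligand 25-hydroxycholesterol (1.02 ± 0.19), Cyp51 (0.90 ± 0.13) and Sult2b1 (0.46 ± 0.14). The count of 0 lower was also 0 at an unadjusted limma p under 0.05, where 4 were higher. Cyp46a1 (0.42), Cyp27a1 (0.19) and Cyp7b1 (-0.13) were not called.

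Pparg, the fatty acid receptor that directs lipid storage, had the largest difference among the 7 uncalled receptors and the largest spread. The brain DC arrays stood at 1.67 and 2.79 and the monocyte arrays at 0.05, -0.16 and 1.68. Monocyte replicate 3 was level with the lower brain DC array, so the groups overlapped. The difference of 1.70 ± 0.56 (3.26-fold, 95% interval 0.40 to 3.01) missed the threshold (limma adjusted p = 0.0506), and without monocyte replicate 3 it was 2.28 and called (limma adjusted p = 0.00419). With the replicate number as a block, which here also leaves that array out of the contrast, it was 2.28 as well (limma adjusted p = 7.91e-04). Ppard, its widely expressed relative, stood at 0.26 and 0.06 against 0.00, 0.20 and -0.06, and the difference of 0.11 ± 0.14 was not called (limma adjusted p = 0.580, 95% interval -0.22 to 0.44). Among genes that PPARs are known to induce, 6 of the 10 measured were higher and 1 lower, against 16.9% of all genes for either call, and their median was 0.55. The 6 became 3 without brain DC replicate 2. Hadha (0.30), Pdk4 (0.11) and Acadvl (0.03) were not called. Cd36, the fatty acid and scavenger receptor, was 39.8-fold higher, at 5.87 and 5.49 in brain DC and between 0.22 and 0.61 in monocytes (5.31 ± 0.18). Fabp4, a fatty acid carrier of adipocytes and macrophages, was higher by 3.22 ± 0.13, with probe sets from 0.87 to 5.55. Cpt1a, which admits fatty acids to the mitochondrion, was the 1 that was lower (-1.10 ± 0.21).

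Rxra, the common partner of these receptors, stood at -0.05 and -0.15 in brain DC and at 0.29, 0.23 and 0.25 in monocytes. Every brain DC array was below every monocyte array, and the difference of -0.35 ± 0.12 missed the threshold (limma adjusted p = 0.0565, 95% interval -0.63 to -0.07). It passed after arrays were centred on their medians (-0.39, limma adjusted p = 0.0384). Its 3 probe sets disagreed: 1454773_at was lower by 0.87 (-0.87 ± 0.14, limma adjusted p = 0.00381), with 0.02 and -0.02 against 0.84, 0.92 and 0.84, while 1430497_at (-0.36 ± 0.17) and 1425762_a_at (0.17 ± 0.18) were not called. Rara, a retinoic acid receptor, stood at 0.08 and 0.22 against 0.02, 0.69 and 0.00, so that monocyte replicate 2 alone was high, and the difference of -0.08 ± 0.22 was not called (limma adjusted p = 0.801, 95% interval -0.60 to 0.43). Among genes of retinoid handling and RAR response, 3 of the 13 measured were higher and 1 lower (median 0.23), so 30.8% were called, near the 33.8% over all genes. Tgm2, a transglutaminase induced by retinoic acid, was 9.37-fold higher (3.23 ± 0.18), with its 6 probe sets between 0.12 and 5.13. Rarb, a receptor gene that RAR itself induces, stood at 0.40 and 1.22 against values between -0.48 and -0.34 (1.22 ± 0.23). Aldh1a2, which makes retinoic acid from retinal, was higher by 0.86 ± 0.23. Rdh10, which makes retinal from retinol, was lower (-1.52 ± 0.32). The lower count of 1 became 2 without monocyte replicate 3 and with the replicate block.

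Nr3c1, the glucocorticoid receptor, stood at -0.16 and 0.16 in brain DC and at 0.21, 0.31 and 0.28 in monocytes as the mean of 6 probe sets. The difference of -0.27 ± 0.14 was not called (limma adjusted p = 0.181, 95% interval -0.60 to 0.06). As with Rxra, single probe sets stood apart. In 1421867_at the brain DC arrays were at -0.04 and -0.13 and the monocyte arrays at 0.97, 1.01 and 0.98, a difference of -1.08 ± 0.14, or 2.11-fold (limma adjusted p = 0.00150). A second, 1460303_at, was lower by 0.60 (-0.60 ± 0.18, limma adjusted p = 0.0456), and lost its call without any 1 of brain DC replicates 1 and 2 and monocyte replicates 1 and 2 (limma adjusted p from 0.0598 to 0.185). The other 4 lay between -0.30 and 0.23 and were not called. In the platform annotation 1421867_at, 1460303_at and 1421866_at (-0.30) share a target sequence. With each gene represented by its probe set of highest mean, both Nr3c1 (-1.08, limma adjusted p = 0.00117) and Rxra (-0.87, limma adjusted p = 0.00307) were called lower. Nr3c1 was also called lower without _x_at and _s_at probe sets (-0.43, limma adjusted p = 0.0394). With only probe sets that target a RefSeq mRNA, an alternative chosen after seeing the data, Nr3c1 was at -0.66 (limma adjusted p = 0.0117). Genes that glucocorticoids are known to induce were mostly higher: 11 of 16 were higher and 1 lower (median 1.32), against 16.9% of all genes in each direction. The largest were Il1r2, the decoy interleukin 1 receptor, 45.2-fold (5.50 ± 0.13), and Dusp1, a MAP kinase phosphatase that is also an immediate early gene, 6.34-fold (2.66 ± 0.49). Cebpd was lower (-0.79 ± 0.13), and with 1 probe set per gene, chosen by highest mean or by largest range, a second gene was lower. Fkbp5 (0.29), Zbtb16 (0.37), Anxa1 (-0.02) and Klf9 (-0.16) were not called. Of 5 measured chaperones of the receptor 4 were higher and 0 lower (median 0.55), against 16.9% of all genes in each direction. These were Bag1 (1.04 ± 0.13), Stip1 (0.76 ± 0.17), Fkbp4 (0.55 ± 0.13) and Hsp90aa1 (0.50 ± 0.13). Hspa8 (0.47) was not called, and at an unadjusted limma p under 0.05 all 5 were higher. That 4 became 2 with the replicate block, and likewise when monocyte replicate 1, brain DC replicate 2 or monocyte replicate 3 was left out.

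Vdr, the receptor of the active form of vitamin D, stood at 0.29 and 0.30 in brain DC and at 0.40, 0.37 and 0.68 in monocytes. The groups did not overlap, and the difference of -0.19 ± 0.14 was not called (limma adjusted p = 0.349, 95% interval -0.52 to 0.14). Among vitamin D enzymes and target genes, 1 of the 8 measured was higher and 1 lower (median 0.00), or 25.0% called against 33.8% of all genes. Cd14, the lipopolysaccharide co-receptor, was higher by 2.31 ± 0.36, and Thbd, thrombomodulin, was lower (-1.86 ± 0.28), and without brain DC replicate 1 a second gene was lower.

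Among the 34 other nuclear receptors measured, 4 were higher and 6 lower, and all lay between -0.95 and 1.22, with a median of 0.06. The share called was 29.4%, near the 33.8% over all genes. Rarb, the clock repressor Nr1d1 (0.96 ± 0.26), Rxrg (0.47 ± 0.13) and Nr2f6 (0.44 ± 0.13) were the 4 higher, while Thra, the thyroid hormone receptor (-0.95 ± 0.16), and Nr2c1 (-0.94 ± 0.12) had the largest decreases. The 4 higher receptors became 1 or 2 when any 1 array was left out, and 2 with the replicate block. Coregulators are the proteins that nuclear receptors recruit to switch genes on or off. Of 13 coactivators 6 were lower and 0 higher (median -0.66), against 16.9% of all genes in each direction, although 1 was higher when a gene was read from a single probe set, by highest mean or by largest range. Ep300, a histone acetyltransferase, stood at -0.88 and -0.55 against 1.00, 0.72 and 1.04 (-1.64 ± 0.16, 3.11-fold lower), and Ncoa1, the first steroid receptor coactivator, was 2.86-fold lower (-1.52 ± 0.19). Of 7 corepressors 2 were lower and 0 higher (median -0.26), 28.6% called against 33.8% of all genes. They were Tbl1xr1 (-1.20 ± 0.14) and Sin3a (-1.16 ± 0.22), and 1 corepressor was higher with the probe set of largest range. The 6 probe sets of Tbl1xr1 ran from -2.87 to 0.07 and the 3 of Sin3a from -2.16 to -0.45. Hdac3 (-0.72), Tbl1x (-0.26), Lcor (-0.19), Gps2 (0.02) and Nrip1 (0.15) were not called. At an unadjusted limma p under 0.05, 7 coactivators and 3 corepressors were lower and 0 of either were higher.

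Immediate early and cAMP response genes, the class to which NR4A belongs and which also respond to tissue handling, were mostly higher in brain DC. Of 21 genes, 17 were higher and 0 lower (median 1.84), against 16.9% of all genes in each direction; when a gene was represented by its probe set of highest mean, 1 was lower. Egr1 stood at 0.90 and 1.09 against -4.31, -4.03 and -4.84 (5.39 ± 0.23, 42.0-fold), and Fosb, an AP-1 subunit, was 33.4-fold higher (5.06 ± 0.29). Sik1 (0.42), Klf4 (0.02), Fosl2 (0.01) and Fos (-0.38) were not called, and Fos was the 1 gene lower at an unadjusted limma p under 0.05. Of 11 factors known to act upstream of NR4A transcription 2 were higher and 2 lower (median -0.13), so 36.4% were called, near the 33.8% over all genes. As means of their probe sets, the CREB coactivator genes Crtc2 (0.67 ± 0.16) and Crtc3 (-0.69 ± 0.13) went opposite ways, as did Mef2c (0.42 ± 0.12) and Mef2a (-0.83 ± 0.16). The 5 probe sets of Mef2c themselves ran from -0.72 to 0.82. Crtc3 was not called when read from its probe set of highest mean (-0.42, limma adjusted p = 0.0653). Leaving out monocyte replicate 2, monocyte replicate 3 or brain DC replicate 2 left 0 of the 2 higher calls. Leaving out brain DC replicate 1 or monocyte replicate 1, or adding the replicate block, left 1. The 2 lower became 5 with the probe set of largest range for each gene. Of 11 genes typical of the Ly6C-low monocytes that need Nr4a1, 5 were higher and 1 lower (median 0.62), against 16.9% of all genes in each direction. Cd9, a tetraspanin, was 13.7-fold higher (3.78 ± 0.24), followed by Fabp4, Eno3 (2.08 ± 0.16), Treml4 (1.98 ± 0.33) and Cd274, which encodes PD-L1 (1.29 ± 0.16). Ace (0.62), Pou2f2 (0.42), Itgal (-0.32), Spn (-0.47) and Cebpb (-0.14) were not called. Cx3cr1, the fractalkine receptor that marks these cells, was 5.89-fold lower, at -0.86 and -0.10 against 2.12, 2.04 and 2.07 (-2.56 ± 0.22). The lower count of 1 became 2 without brain DC replicate 2, with centred arrays or with the probe set of largest range, and 3 with that of highest mean.

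**Figure D4:**
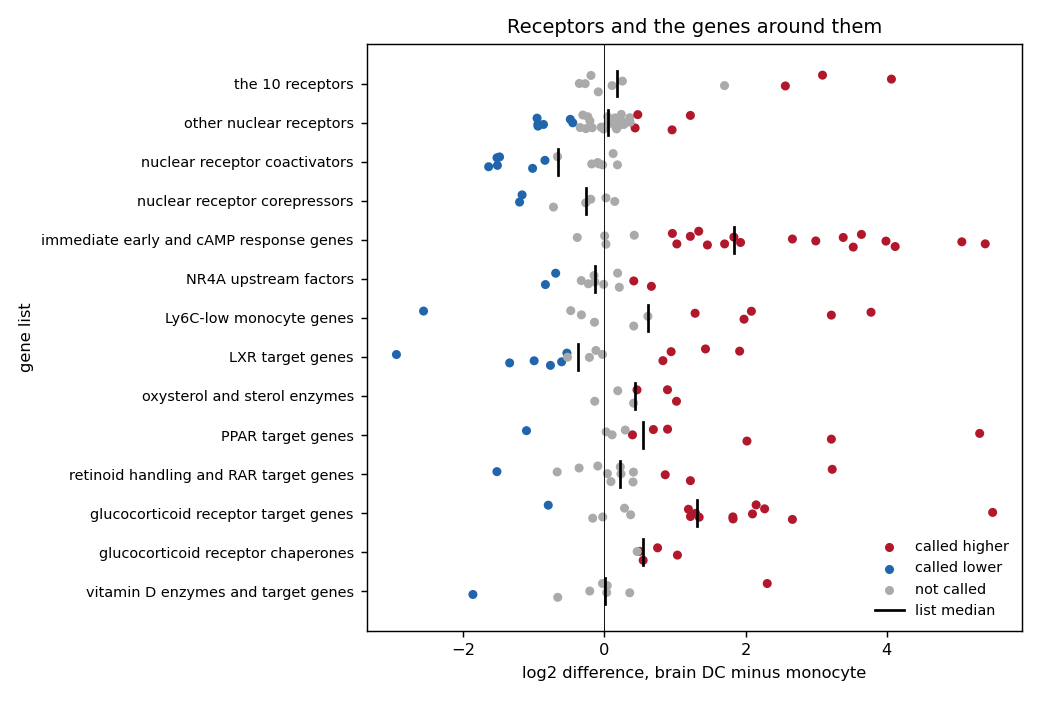
Log2 difference, brain DC minus monocyte, of each measured gene of the 10 receptors and of 13 lists of genes around them; each point is a gene, red called higher, blue called lower and grey not called, and the black line is the list median. The immediate early and glucocorticoid target lists lie mostly to the right (medians 1.84 and 1.32) and the coactivators to the left (median -0.66).

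The genes whose profile over the 5 arrays was closest to each NR4A gene were found by the root mean square difference of values centred on each gene's mean. This is a description over 5 arrays, which mainly reflects the size of the group difference. The profiles are means of probe sets, and those of Nr4a3 differed by 0.33 to 6.69, so its nearest genes match that mean and no single probe set. Nearest to Nr4a1 were Grap (0.10), Tgm2 (0.11) and Rtl8c (0.13). Nearest to Nr4a2 were Egr3 (0.07), the chemokine gene Ccl4 (0.07) and Plpp1 (0.07), and nearest to Nr4a3 were Pmepa1 (0.05), the immunoproteasome gene Psmb9 (0.07) and Ppp1r11 (0.08). Egr3 stood at 0.81 and 0.89 in brain DC and at -3.27, -3.20 and -3.33 in monocytes, as the mean of 2 probe sets with differences of 0.86 and 7.38.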

How the data were processed

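RNA from 5 sorted samples went onto 1 Affymetrix array each. A Qiagen kit gave the total RNA and the Affymetrix procedure the biotin-labelled cRNA, per the labels' protocols. The authors deposited RMA output (per the submitters' processing notes), which is read here as log2. Not given in the sources used here are the version of RMA, the set of arrays it was run on and how probe sets were centred. No raw scans were analysed, so background correction and detection could not be varied. Affymetrix controls (64 of 45101 probe sets) were left out of the tests. Of the rest, 34945 had 1 gene symbol in the platform annotation, 932 had more than 1 and 9160 had none; 1 probe set naming Ppard beside another gene was left out. Probe sets were averaged per gene.

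Differences were tested with limma 3.58.1 in R 4.3.3 (lmFit and eBayes, 3 residual and 4.43 prior degrees of freedom), with Benjamini-Hochberg adjustment over 18193 genes or 45037 probe sets and a threshold of 0.05. The fit was tried on 3 draws of simulated data with independent noise and few changed genes. That setting lacks the spike-in and transcript-end differences of these arrays and cannot show how the fit behaves under them. The number of arrays limits the precision. The replicate numbers in the titles were tried as a block. The members and the gene lists were chosen with earlier results of these data known. Named genes were all members, the 2 called genes with the largest increase and decrease of each pathway list, the genes behind a pathway list's count of at most 5, the 2 largest differences of each marker list and the 3 nearest profiles of each NR4A gene. Srebf1 and Scd2 were named besides. Xist and the Y-linked genes were read as a check. Receptor proteins and probe positions were not used here.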

Additional observations from a re-analysis of the deposited data

How the results depend on the processing

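The 3 NR4A genes were called higher under all 13 alternatives for Nr4a1 and Nr4a2 and all 12 that gave a value for Nr4a3, with log2 differences of 2.90 to 3.28, 3.68 to 6.25 and 2.47 to 6.69. The number of receptors called higher was 3 or 4 throughout, and where it was 4 the fourth was Pparg. With only probe sets that target a RefSeq mRNA, 6 receptors had a value and the 3 higher were Nr4a1, Nr4a2 and Pparg. The number called lower, 0, became 2 with the probe set of the highest mean and 2 with that of the largest range. It was 1 without _x_at and _s_at probe sets, 1 with arrays centred on their median and 1 with only those that target a RefSeq mRNA, an alternative chosen after seeing the data. The change in Nr4a3 minus that in Nr4a1 turned to 3.60 with the probe set of the highest mean and 3.60 with that of the largest range, and Nr4a3 minus Nr4a2 turned to 1.88 and 0.45; the cause was not tested. Uncalled values near 0 also changed sign: Ppard (-0.066) and Vdr (0.0037) with the probe set of the highest mean, and, leaving out single arrays, Rara and its probe set 1450180_a_at (-0.20 to 0.14), 1418176_at (-0.15 to 0.16), 1439797_at (-0.16 to 0.025), 1453860_s_at (-0.26 to 0.37) and 1457635_s_at (-0.15 to 0.29). Over all genes, 3068 were higher and 3083 lower, and leaving out 1 array gave 2236 to 2447 and 2371 to 2806. With the replicate block, 4 receptors were called higher and 0 lower, against 3 and 0, and 2513 and 3006 of all genes. Only 2 numbers are shared by both groups. Same-numbered arrays deviated together with correlations of 0.04 and 0.09, and brain DC replicate 1 with monocyte replicate 3 gave 0.05. With 2 brain DC arrays the deviations mirror each other, so these correlations cannot show whether the numbers pair the samples. The main fit did not pair them. With 2 and 3 arrays, differences the size of those in the 7 uncalled receptors may go uncalled.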
